A study of Homo sapiens with 6 samples.

Results

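A module of 39 genes was taken by symbol from the 46427 genes of the gene table. It holds 19 cytosolic aminoacyl-tRNA synthetases, 7 enzymes listed under amino-acid synthesis, 4 amino-acid transporter subunits, 5 transcription factors and 4 stress effectors of the program driven by ATF4. The 7 enzymes, here synthesis enzymes, include the mitochondrial folate enzymes ALDH1L2, SHMT2 and MTHFD2. The 20 genes that are not synthetases were set beside the 19 that are. RNA came from MDA-MB-231, a human line from metastatic breast cancer that both groups share, cultured in DMEM with 5.5 mM glucose. Cells had received control-siRNA (3 libraries) or the siGENOME human WWTR1 siRNA, here TAZ-siRNA (3 libraries). The study's transfection reagent was DharmaFECT4, which its migration assay names for both siRNAs. The design concerns a transient knockdown in 1 cell line, with 3 cell preparations in each group, so the p-values measure the spread between these preparations. WWTR1 encodes TAZ, a coactivator that works through TEAD transcription factors, and the series asked how its loss alters transcripts linked to metastasis.

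Aminoacyl-tRNA synthetases join each amino acid to its tRNA, the step that reads the genetic code into protein. When amino acids run short or proteins misfold in the endoplasmic reticulum, kinases phosphorylate the initiation factor eIF2, overall translation falls, and ATF4 mRNA is translated more because of short reading frames in its leader. ATF4 then binds C/EBP-ATF response elements, mostly paired with a C/EBP protein, and raises transcripts for synthetases, amino-acid enzymes, amino-acid carriers and stress effectors. Since ATF4 is set largely at translation, its mRNA does not report the amount of its protein.

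The 3 control-siRNA libraries held 49662504 to 66769103 counts and the TAZ-siRNA ones 48307548 to 71749634. Levels are in CPM, counts scaled by the normalized library size, and 3 counts were worth 0.0412 to 0.0618 CPM, a limit that covers counting error only. The 39 genes had 205 to 54893 counts per library, so all of them lay far above that limit. WWTR1 measured 192, 189.7 and 190.0 CPM with control-siRNA and 17.3, 17.03 and 15.1 CPM with TAZ-siRNA (log2 fold change -3.53, standard error 0.061, edgeR adjusted p = 2.5e-10). TAZ-siRNA replicate 3 stood apart, with a mean absolute log2 deviation from its group mean of 0.156 against 0.110 to 0.139 in the other libraries, and it had the lowest WWTR1 level. The labelled epithelial line was checked against markers. Of 6 epithelial markers, KRT8, KRT18, KRT19 and CLDN4 lay at 25.4 to 591 CPM and EPCAM and CDH1 at 0.0406 to 1.59 CPM. Of 5 mesenchymal markers, VIM, FN1, CD44 and SPARC lay at 51.9 to 3734 CPM and CDH2 at 0 to 0.418 CPM. Among luminal receptors and factors ERBB2, GATA3 and FOXA1 ranged from 4.12 to 62.6 CPM, and ESR1 and PGR had at most 6 counts. Of 6 markers of other cell types, PTPRC and CD3E were at 0 counts and PECAM1, CDH5, ACTA2 and PDGFRB at 1.31 to 19.2 CPM.

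All 39 genes passed the expression filter, which kept 16966 genes. With TAZ-siRNA, 13 of the 39 fell and 3 rose by the quasi-likelihood test of edgeR (adjusted p under 0.05), while 23 did not pass. Among all genes tested 10.2% fell, 11.9% rose and 22.1% passed in either direction. Every synthetase had a log2 fold change below 0, although MARS1 and WARS1 lay above 0 without TAZ-siRNA replicate 2, and 8 of the 19 fell with none rising. Of the other 20 genes 5 fell, and the 3 that rose were CEBPB, CHAC1 and SESN2. The median log2 fold change was -0.22 over the synthetases, -0.28 over the synthesis enzymes, -0.21 over the transporters, -0.01 over the transcription factors and 0.20 over the stress effectors, against -0.01 over all genes tested, of which 50.8% lay below 0. Because these are bulk RNA values, fewer cells of a kind and less RNA per cell cannot be told apart.

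**Figure D1:**
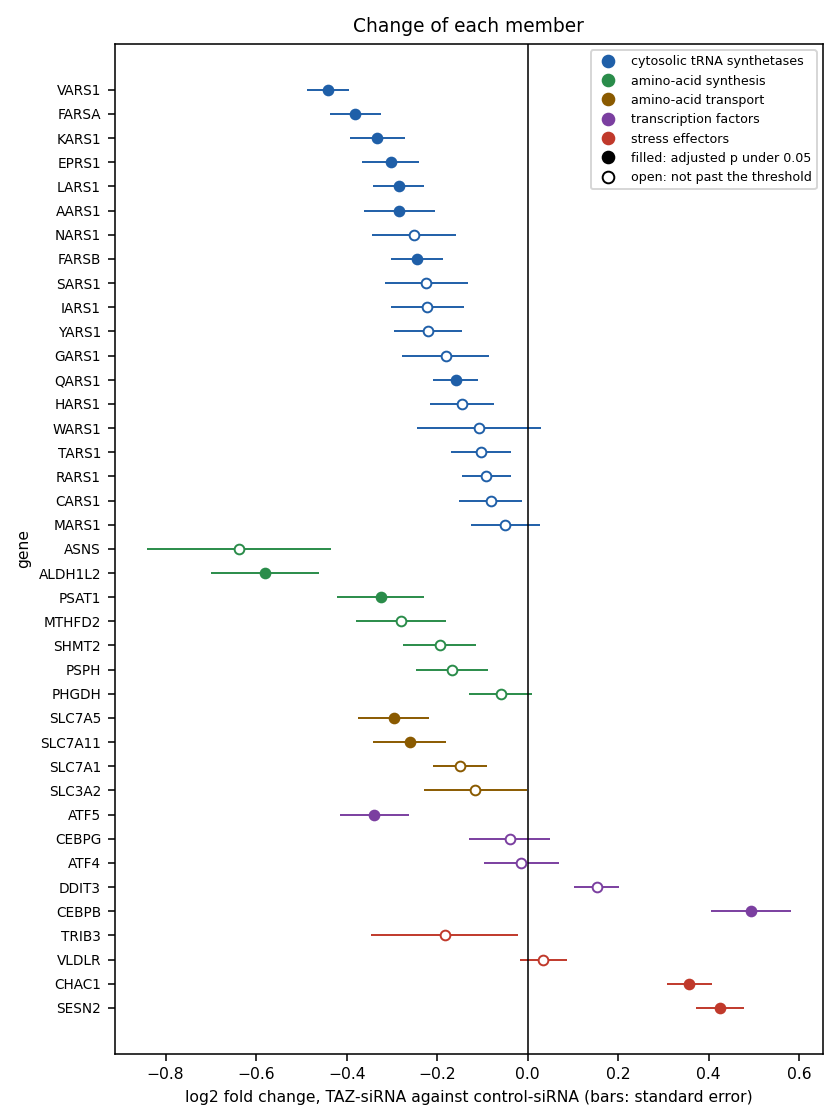
Log2 fold change of each of the 39 genes, TAZ-siRNA against control-siRNA (x axis, points), with its standard error (bars), grouped by role and ordered within a role (y axis). Filled points passed an adjusted p under 0.05. All synthetases, synthesis enzymes and transporters lie left of 0, from -0.64 for ASNS to -0.05 for MARS1, and the filled points right of 0 are CEBPB, CHAC1 and SESN2.

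ATF4 binding to these genes was not measured, so the promoter sequences are given only to show the element that the program is known for. Of the 39 genes, 32 matched a RefSeq promoter in GRCh38.p14, which spans 250 bases before a start site and 50 after it. The letters TGATGNAA, searched on both strands, occurred in 12 of the 32 (37.5%), in 4.46% of all genes with such a promoter and in 2.92% of those that were also tested here. The genes had been assembled as ATF4 targets, and such elements are part of how targets are recognised, so this share was not independent of the choice. Synthetases held it in 7 of 16 (AARS1, CARS1, GARS1, IARS1, MARS1, NARS1 and TARS1), and the remaining 5 were ASNS, SLC3A2, SLC7A1, CEBPG and CHAC1. GGAATG, the core of the sites bound by TEAD factors, occurred in 3 of the 32 (9.38%), namely CARS1, ATF5 and CEBPG, against 16.7% of all genes with a promoter and 15.2% of those tested, and no match shared bases with one to TGATGNAA. The 6 stretches with a TGATGNAA match upstream of the start site are printed 5′ to 3′ on the strand of the gene, with the match in capitals. They come from chr16:70289646-70289733, chr7:97872429-97872516 and chr9:92293698-92293750 on the minus strand and from chr19:33374031-33374112, chr15:40953222-40953309 and chr7:30594805-30594877 on the plus strand, in the order AARS1, ASNS, IARS1, CEBPG, CHAC1 and GARS1.
AARS1: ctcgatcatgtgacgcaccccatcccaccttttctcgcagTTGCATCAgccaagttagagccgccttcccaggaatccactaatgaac
ASNS: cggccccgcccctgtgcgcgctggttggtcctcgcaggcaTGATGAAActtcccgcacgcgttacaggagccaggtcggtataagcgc
IARS1: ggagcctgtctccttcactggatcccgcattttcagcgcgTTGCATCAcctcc
CEBPG: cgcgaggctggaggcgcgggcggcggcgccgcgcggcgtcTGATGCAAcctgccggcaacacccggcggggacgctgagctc
CHAC1: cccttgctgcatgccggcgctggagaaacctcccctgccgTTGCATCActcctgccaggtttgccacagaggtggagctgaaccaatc
GARS1: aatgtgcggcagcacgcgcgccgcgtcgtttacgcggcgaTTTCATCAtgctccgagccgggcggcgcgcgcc
The match began at position -68 from the start site in ASNS, which had the lowest fold change of the 39 genes, and at position -209 in CHAC1, which rose. Genes with a printed match thus included AARS1, which fell, CHAC1, which rose, and GARS1, IARS1, ASNS and CEBPG, which did not pass the test.

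Among the synthetases, VARS1 (valyl-tRNA synthetase, chr6:31777518-31795928, GRCh38) had the largest fold change. Its level was 169, 169.9 and 165 CPM in the control-siRNA libraries and 124, 128 and 119 CPM in the TAZ-siRNA libraries (168 ± 2.501 against 124 ± 4.09 CPM, SD, n = 3 each). All TAZ-siRNA libraries lay below all control-siRNA libraries, at 73.6% of the control mean (log2 fold change -0.44, standard error 0.046, edgeR adjusted p = 2.1e-04). It was the only synthetase in which TAZ-siRNA replicate 3 was the lowest of its group.

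Phenylalanyl-tRNA synthetase is built from an alpha and a beta subunit, encoded by FARSA (chr19:12922479-12933711) and FARSB (chr2:222566899-222656092), and both fell. FARSA measured 161, 162 and 174 CPM with control-siRNA and 121, 126 and 135 CPM with TAZ-siRNA (166 ± 7.08 against 127 ± 7.40 CPM, SD, n = 3 each; log2 fold change -0.38, standard error 0.056, edgeR adjusted p = 0.0012). FARSB was 60.2, 64.8 and 64.5 CPM with control-siRNA and 53.5, 50.2 and 56.2 CPM with TAZ-siRNA (63.2 ± 2.56 against 53.3 ± 3.00 CPM, SD, n = 3 each; log2 fold change -0.24, standard error 0.058, edgeR adjusted p = 0.014). Neither subunit's groups overlapped. Per length, in TPM, the alpha subunit stood at 198 ± 3.72 and the beta subunit at 42.7 ± 6.75 with control-siRNA (SD, n = 3 each), though the assignment of FARSB to transcripts of 1954 to 6957 bases changed between control libraries.

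Several cytosolic synthetases sit in the multisynthetase complex, and among them KARS1, EPRS1, LARS1 and QARS1 fell. KARS1 (lysyl-tRNA synthetase, chr16:75627724-75647665) went from 252, 253 and 262 CPM to 197, 192 and 220.5 CPM (256 ± 5.58 against 203 ± 15.2 CPM, SD, n = 3 each; log2 fold change -0.33, standard error 0.06, edgeR adjusted p = 0.0037). These KARS1 values cover a cytosolic and a mitochondrial form. By the transcript estimates given below, the cytosolic form overlapped between groups and the mitochondrial form did not. EPRS1, which charges tRNA with glutamate and with proline from a single polypeptide, had 325, 334 and 332 CPM with control-siRNA and 270.5, 246 and 287 CPM with TAZ-siRNA (330.3 ± 5.03 against 268 ± 20.7 CPM, SD, n = 3 each; log2 fold change -0.30, standard error 0.063, edgeR adjusted p = 0.0072). In LARS1, the leucyl-tRNA synthetase that has also been described as a leucine sensor for mTORC1, values of 307, 321 and 320.1 CPM stood against 262, 245 and 271 CPM (316 ± 7.82 against 259 ± 13.4 CPM, SD, n = 3 each; log2 fold change -0.29, standard error 0.056, edgeR adjusted p = 0.0055). In these 3 genes each TAZ-siRNA library lay below each control-siRNA library, and TAZ-siRNA replicate 3 was the highest of its group. QARS1 (glutaminyl-tRNA synthetase) showed the smallest fold change that passed, from 219, 224 and 233 CPM to 196, 202 and 208 CPM (225 ± 7.44 against 202 ± 5.91 CPM, SD, n = 3 each; log2 fold change -0.16, standard error 0.05, edgeR adjusted p = 0.045). The scaffold genes of the complex AIMP1 and AIMP2 fell as well, with log2 fold changes of -0.24 and -0.25 (edgeR adjusted p = 0.0082 and 0.046).

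AARS1, the alanyl-tRNA synthetase, was 322, 331 and 345 CPM with control-siRNA and 266, 246 and 308 CPM with TAZ-siRNA (333 ± 11.6 against 273 ± 31.7 CPM, SD, n = 3 each; log2 fold change -0.28, standard error 0.078, edgeR adjusted p = 0.026). Replicate 3 reached 92.6% of the control mean, where replicates 1 and 2 had 79.9 and 73.9%. The call of AARS1 was lost when any library other than TAZ-siRNA replicate 3 was left out, and the same held for QARS1, PSAT1, SLC7A11 and SLC7A5. EPRS1, FARSA, KARS1, LARS1 and VARS1 passed whichever of the 6 libraries was left out, and FARSB passed in 4 of these fits, the exceptions being those without control-siRNA replicate 2 or 3. FARSB, QARS1 and SLC7A11 also did not pass with limma on log2 FPKM.

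The other 11 synthetases did not pass, and their log2 fold changes ran from -0.25 to -0.05. NARS1, IARS1, YARS1 and RARS1 had groups that did not overlap, with log2 fold changes of -0.25, -0.22, -0.22 and -0.09 (edgeR adjusted p = 0.081, 0.072, 0.058 and 0.25). SARS1, GARS1, HARS1 and TARS1, which charge tRNA with serine, glycine, histidine and threonine, lay at -0.22, -0.18, -0.15 and -0.10, and the locus of HARS1 overlaps that of its mitochondrial relative HARS2 by 284 bases. In CARS1, MARS1 and WARS1, for cysteine, methionine and tryptophan, TAZ-siRNA replicate 3 was above the control mean, at 105, 109 and 114% of it, and their log2 fold changes were -0.08, -0.05 and -0.11. WARS1 is also known as an interferon-induced gene. Over the 39 genes, groups that did not overlap were lower with TAZ-siRNA in 20 (12 of them synthetases) and higher in 4, against 19.6% lower, 20.0% higher and 39.6% in either direction among all genes tested. For each such gene the exact permutation p was 0.1 (2-sided), the smallest that 3 libraries against 3 allow.

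Of the genes listed as synthesis enzymes, PSAT1 and the folate enzyme ALDH1L2 fell and the other 5 did not pass. ALDH1L2, which uses folate units in the mitochondrion to make NADPH (chr12:105019784-105084609), had 7.29, 6.59 and 7.64 CPM with control-siRNA and 4.72, 4.16 and 5.48 CPM with TAZ-siRNA (7.17 ± 0.535 against 4.79 ± 0.663 CPM, SD, n = 3 each; log2 fold change -0.58, standard error 0.12, edgeR adjusted p = 0.0067). It was the lowest of the 39 genes per length, at 2.21 ± 0.124 TPM with control-siRNA (SD, n = 3), and its groups did not overlap. PSAT1, the aminotransferase of serine synthesis, was 333, 350.0 and 346 CPM with control-siRNA and 268, 234 and 318 CPM with TAZ-siRNA (343 ± 9.06 against 274 ± 42.6 CPM, SD, n = 3 each; log2 fold change -0.33, standard error 0.095, edgeR adjusted p = 0.035). The enzymes before and after it in serine synthesis, PHGDH and PSPH, did not pass (log2 fold change -0.06, edgeR adjusted p = 0.59, and log2 fold change -0.17, edgeR adjusted p = 0.16), and the pseudogene PSPHP1 had counts of up to 27.7% of those of PSPH. The mitochondrial folate enzymes SHMT2 and MTHFD2 had log2 fold changes of -0.19 and -0.28 (edgeR adjusted p = 0.11 and 0.073).

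ASNS, the asparagine synthetase and a standard readout of ATF4 (chr7:97851677-97928441), had the largest fold change of the module and did not pass (log2 fold change -0.64, standard error 0.2, edgeR adjusted p = 0.078). Its values were 298, 347 and 336 CPM with control-siRNA and 194, 159.8 and 276 CPM with TAZ-siRNA (327 ± 25.8 against 209.8 ± 59.4 CPM, SD, n = 3 each). All TAZ-siRNA libraries were lower, but they ranged from 48.9 to 84.4% of the control mean. Without TAZ-siRNA replicate 3 the log2 fold change was -0.88 (edgeR adjusted p = 5.2e-04). ASNS passed in 3 of 14 alternative fits, namely this one, DESeq2 and limma on log2(FPKM + 1). ASNS shares its locus with the read-through gene CZ1P-ASNS, whose counts were up to 23.7% of those of ASNS and numbered 395 in control-siRNA replicate 2 against 1506 to 2582 in the other libraries. The sum of the pair was 328.5, 353 and 367 CPM with control-siRNA and 229.7, 198 and 306 CPM with TAZ-siRNA, a log2 ratio of -0.51.

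SLC7A5 and SLC7A11, which pair with SLC3A2 to carry large neutral amino acids and cystine respectively, both fell. SLC7A5 was 670.2, 674 and 681 CPM with control-siRNA and 536, 495 and 619 CPM with TAZ-siRNA (675 ± 5.28 against 549.8 ± 62.9 CPM, SD, n = 3 each; log2 fold change -0.30, standard error 0.078, edgeR adjusted p = 0.022). SLC7A11 had 464, 472 and 429.7 CPM with control-siRNA and 407, 332 and 400.4 CPM with TAZ-siRNA (455 ± 22.6 against 379.9 ± 41.6 CPM, SD, n = 3 each; log2 fold change -0.26, standard error 0.081, edgeR adjusted p = 0.041). Their shared heavy chain SLC3A2 did not pass (log2 fold change -0.12, edgeR adjusted p = 0.51), with replicates 1 and 2 of TAZ-siRNA below all control-siRNA libraries and replicate 3 above them. The cationic amino-acid carrier SLC7A1 did not pass either (log2 fold change -0.15, edgeR adjusted p = 0.099), although its groups did not overlap. Per length the heavy chain was highest, at 539.6 ± 20.1 TPM, followed by SLC7A5 at 334 ± 18.6, SLC7A1 at 137 ± 6.77 and SLC7A11 at 103 ± 7.41 TPM with control-siRNA (SD, n = 3 each), and none of these neighbours overlapped.

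ATF4 mRNA (chr22:39514494-39522686) measured 778, 782 and 810.1 CPM with control-siRNA and 753, 702 and 892 CPM with TAZ-siRNA (790.0 ± 17.6 against 782 ± 98.1 CPM, SD, n = 3 each). TAZ-siRNA replicates 1 and 2 were below all control-siRNA libraries and replicate 3 was above them, and the log2 fold change was -0.01 (standard error 0.083, edgeR adjusted p = 0.93). ATF4 had the highest level per length of the 39 genes, 1069 ± 13.5 TPM with control-siRNA and 1080 ± 123 TPM with TAZ-siRNA (SD, n = 3 each).

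The other factors of the program moved in different directions. ATF5, a relative of ATF4 that is also controlled at translation, had 26.8, 27.1 and 27.1 CPM with control-siRNA and 20.6, 19.4 and 23.9 CPM with TAZ-siRNA and fell (27.0 ± 0.156 against 21.3 ± 2.29 CPM, SD, n = 3 each; log2 fold change -0.34, standard error 0.077, edgeR adjusted p = 0.011). The call was lost on leaving out control-siRNA replicate 2 or TAZ-siRNA replicate 1, and the locus of ATF5 overlaps that of NUP62 by 803 bases. CEBPB (chr20:50190583-50192690), whose protein can pair with ATF4, was 121, 108 and 97.1 CPM with control-siRNA and 139.9, 149 and 169.5 CPM with TAZ-siRNA and rose (108 ± 11.8 against 153 ± 15.2 CPM, SD, n = 3 each; log2 fold change 0.49, standard error 0.088, edgeR adjusted p = 0.0042). Its groups did not overlap, and replicate 3 was the highest of the TAZ-siRNA libraries at 156% of the control mean. CEBPG, another partner of ATF4, did not pass (log2 fold change -0.04, edgeR adjusted p = 0.79). DDIT3, which encodes the stress factor CHOP, did not pass (log2 fold change 0.15, edgeR adjusted p = 0.052) with 161, 156 and 152 CPM against 171, 168 and 182 CPM, groups that did not overlap, and its locus meets that of MARS1 over 68 bases. In 7 of 14 alternative fits DDIT3 passed, among them DESeq2 and both limma fits.

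CHAC1 (chr15:40942137-40956518), an enzyme that degrades glutathione, rose from 73.3, 68.7 and 73.3 CPM to 88.7, 94.3 and 92.8 CPM (71.8 ± 2.69 against 91.9 ± 2.92 CPM, SD, n = 3 each; log2 fold change 0.36, standard error 0.05, edgeR adjusted p = 9.1e-04). SESN2 (chr1:28259452-28282491), a leucine sensor that restrains mTORC1, rose from 63.0, 59.7 and 56.9 CPM to 78.9, 79.2 and 83.1 CPM (59.9 ± 3.05 against 80.4 ± 2.33 CPM, SD, n = 3 each; log2 fold change 0.42, standard error 0.053, edgeR adjusted p = 5.4e-04). In both genes every TAZ-siRNA library was above every control-siRNA library, replicate 3 lay close to the other 2, and the call held without any 1 library. The pseudokinase gene TRIB3, which feeds back on ATF4, did not pass (log2 fold change -0.18, edgeR adjusted p = 0.47), with 180.4, 151 and 242 CPM in the TAZ-siRNA libraries against 208, 220.4 and 223 CPM in the control-siRNA libraries. The lipoprotein receptor gene VLDLR did not pass (log2 fold change 0.03, edgeR adjusted p = 0.68).

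**Figure D2:**
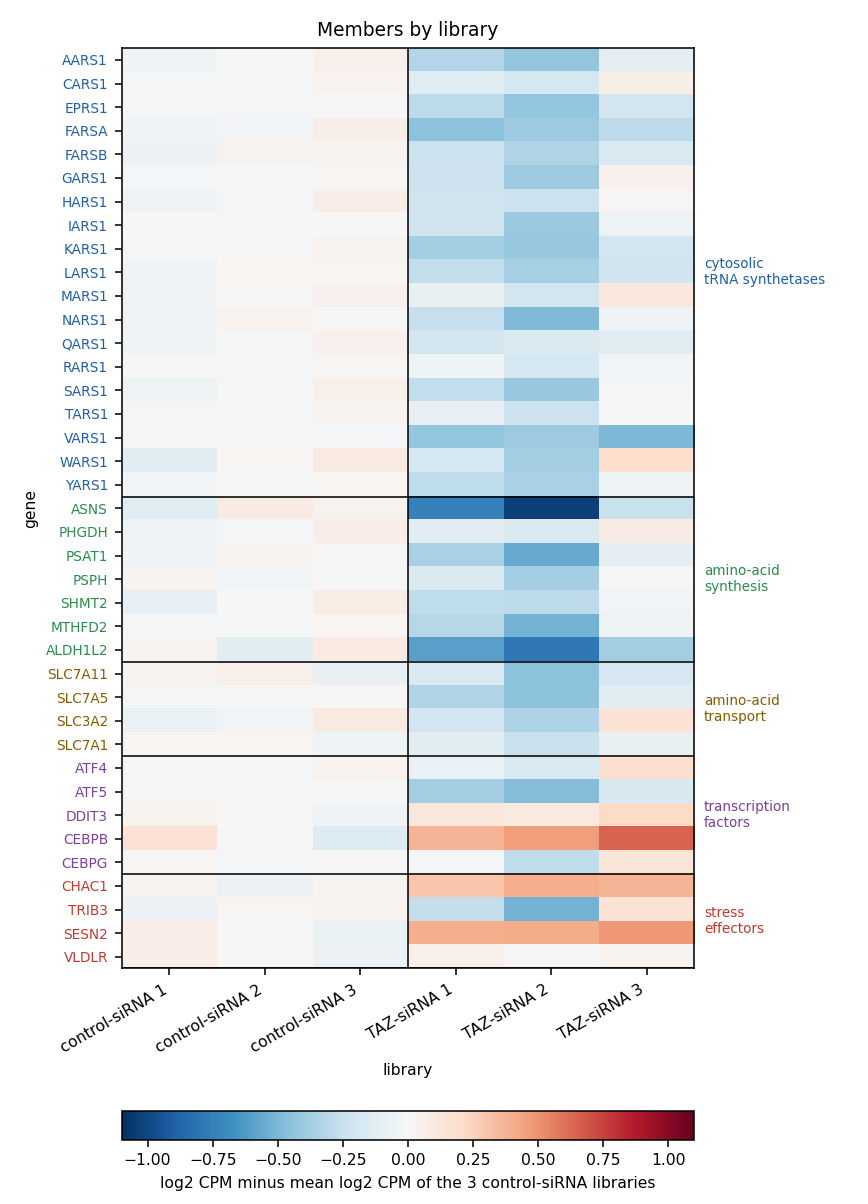
Log2 CPM of each of the 39 genes (rows, grouped by role) in each of the 6 libraries (columns), minus the mean log2 CPM of the 3 control-siRNA libraries (colour scale, blue lower and red higher). TAZ-siRNA replicates 1 and 2 are blue for all 19 synthetases, replicate 3 is paler or red in many of them, and CEBPB, CHAC1 and SESN2 are red in all 3 TAZ-siRNA libraries.

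The TAZ-siRNA libraries were not alike across the module. Replicates 1 and 2 were each below every control-siRNA library in 34 of the 39 genes, including all 19 synthetases, where 37.6 and 37.9% of all genes tested were. Replicate 3 was below every control-siRNA library in 20 genes (12 synthetases), against 35.7% of all genes, and above every one in 13, against 34.7%. Replicates 1 and 2 were above every control-siRNA library in 4 of the 39 each (DDIT3, CEBPB, CHAC1 and SESN2), against 36.9 and 37.9% of all genes. Replicate 3 was the highest TAZ-siRNA library in 35 of the 39 genes, compared with 37.8% of all genes tested. The order from replicate 2 up to 1 and then 3 held in 31 genes, compared with 21.4% of all genes. The median log2 difference from the control mean over the synthetases was -0.24, -0.38 and -0.05 in TAZ-siRNA replicates 1, 2 and 3.

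**Figure D3:**
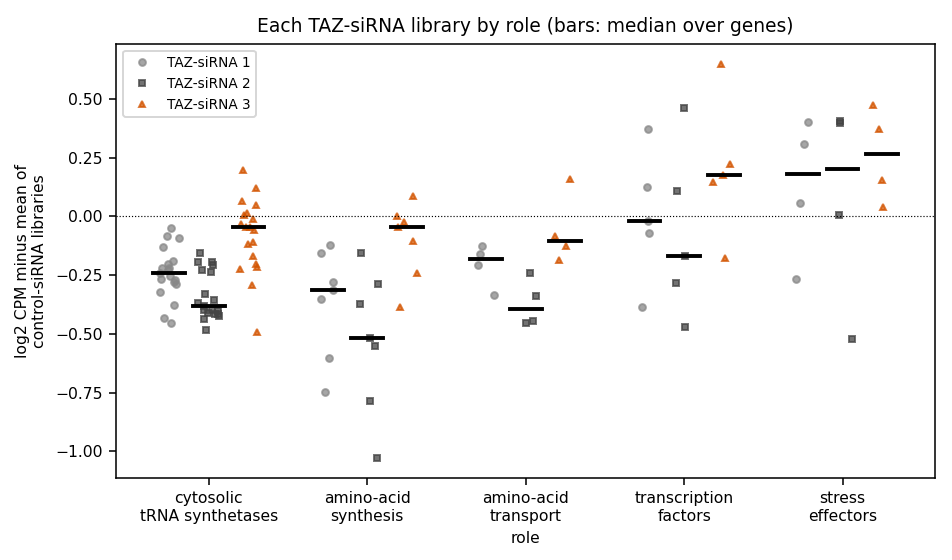
Log2 CPM of each gene in each TAZ-siRNA library minus the mean over the control-siRNA libraries (y axis), by role (x axis), with 1 point per gene and bars at the median over genes. For the synthetases, synthesis enzymes and transporters replicate 2 (squares) has the lowest median and replicate 3 (triangles) the one nearest to 0, at -0.38 and -0.05 for the synthetases.

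Leaving out 1 library moved the count of genes that fell. Without TAZ-siRNA replicate 3 it was 30 of 39, with 18 of 19 synthetases (all but RARS1), while 17.3% of all genes tested fell in that fit. It was 7 and 8 without TAZ-siRNA replicate 1 or 2, where 5.36 and 7.16% of all genes fell. It was 8, 6 and 7 without control-siRNA replicate 1, 2 or 3, where 5.81, 4.97 and 5.66% of all genes fell. The number that rose was 3 or 4 in all 6 of these fits. Genes of the unfolded protein response also set replicate 3 apart, and their part in these values was not tested: 9 of 14 were above every control-siRNA library in replicate 3, where 34.7% of all genes were, with median log2 differences from the control mean of -0.13, -0.26 and 0.14 in replicates 1, 2 and 3. Within that list the chaperone gene HSPA5, named after its values were seen, had 6966, 7359 and 7482 CPM with control-siRNA and 6090, 5007 and 8235 CPM with TAZ-siRNA. HMOX1, an oxidative-stress gene named in the same way, belongs to another list, that of further ATF4 targets. It had 1043, 714 and 1964 CPM in the TAZ-siRNA libraries against 921, 963 and 1113 CPM with control-siRNA. HMOX1 did not pass (log2 fold change 0.31, edgeR adjusted p = 0.65).

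Mitochondrial synthetases that have genes of their own were read as a comparison. KARS1 and GARS1, which each make a cytosolic and a mitochondrial form, stayed in the cytosolic list. Of 17 tested, 4 fell and 1 rose, against 10.2 and 11.9% of all genes tested. Those that fell included MARS2, WARS2 and EARS2 with log2 fold changes of -0.27, -0.24 and -0.21 (edgeR adjusted p = 0.029, 0.0097 and 0.02), and LARS2 rose (log2 fold change 0.23, edgeR adjusted p = 0.042). Their median log2 fold change was -0.10, and 14 of the 17 lay below 0. Replicate 3 was the lowest TAZ-siRNA library in 11 of the 17, and the median log2 differences from the control mean were -0.11, -0.10 and -0.15 in replicates 1, 2 and 3. The order of the TAZ-siRNA libraries seen in the cytosolic synthetases was thus not seen in this list, and no test compared the 2 lists.

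Further ATF4 targets and the arms upstream of ATF4 were counted from lists. Of 21 further targets tested, 8 fell and 1 rose, against 10.2 and 11.9% of all genes tested. Among those that passed, the largest falls were in NUPR1, a stress-induced chromatin protein (log2 fold change -1.20, edgeR adjusted p = 0.0037), PCK2, the mitochondrial enzyme that makes phosphoenolpyruvate (log2 fold change -0.70, edgeR adjusted p = 6.0e-04), and EIF4EBP1, a repressor of cap-dependent initiation (log2 fold change -0.45, edgeR adjusted p = 0.022), while GOT1, the aspartate aminotransferase, also fell (log2 fold change -0.42, edgeR adjusted p = 0.047). The gene that rose, named after its values were seen, was SLC38A2, a carrier of small neutral amino acids (log2 fold change 0.36, edgeR adjusted p = 0.0048). GDF15 and PYCR1, named in the same way, had groups that did not overlap and did not pass. GDF15, a stress-induced secreted factor, had 232, 259 and 290.5 CPM with control-siRNA and 437, 379 and 715 CPM with TAZ-siRNA (log2 fold change 0.97, edgeR adjusted p = 0.062), the largest fold change above 0 in the list. PYCR1, an enzyme of proline synthesis, had 74.7, 79.0 and 86.5 CPM with control-siRNA and 46.8, 40.6 and 66.0 CPM with TAZ-siRNA (log2 fold change -0.65, edgeR adjusted p = 0.052). Among 16 genes for eIF2, its exchange factor, its kinases and its phosphatase subunits, 5 fell and 2 rose, beside the same shares of all genes (10.2% lower and 11.9% higher). EIF2AK3, which encodes the kinase PERK, rose (log2 fold change 0.37, edgeR adjusted p = 0.017), as did PPP1R15B, a subunit that directs eIF2 dephosphorylation (log2 fold change 0.28, edgeR adjusted p = 0.0054), whereas IMPACT, an inhibitor of the kinase GCN2, and EIF2B1, a subunit of the exchange factor, fell (log2 fold change -0.35, edgeR adjusted p = 0.0029, and log2 fold change -0.24, edgeR adjusted p = 0.0044).

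In the folate cycle MTHFD1, MTHFD1L and TYMS fell, with log2 fold changes of -0.28, -0.24 and -0.19 (edgeR adjusted p = 0.0018, 0.018 and 0.017). Of the 14 genes of the unfolded protein response 2 rose and 1 fell, against 11.9 and 10.2% of all genes. HERPUD1, which serves the degradation of misfolded proteins, and the co-chaperone gene DNAJB9 rose (log2 fold change 0.41, edgeR adjusted p = 0.0015, and log2 fold change 0.26, edgeR adjusted p = 0.035), while the sensor gene ERN1 fell (log2 fold change -0.33, edgeR adjusted p = 0.019).

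**Figure D4:**
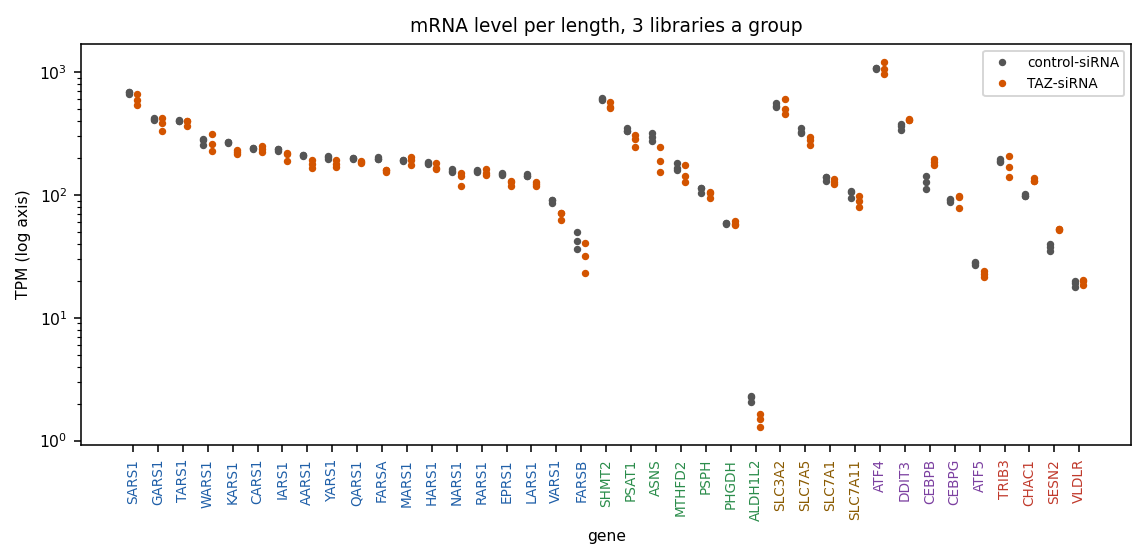
Level per length (TPM, log axis) of the 39 genes (x axis, ordered by level within a role), with 1 point for each of the 3 libraries of a group. ATF4 is highest at 1069 TPM with control-siRNA, ALDH1L2 is lowest at 2.21 TPM, and SARS1 at 680.4 TPM is the highest synthetase.

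Per length, SARS1 was the most abundant synthetase at 680.4 ± 17.1 TPM with control-siRNA (SD, n = 3), followed by GARS1 at 418 ± 5.59 and TARS1 at 402 ± 2.32 TPM. Most synthetases lay between 144 and 273 TPM, and VARS1 and FARSB, at 89.5 ± 3.35 and 42.7 ± 6.75 TPM, were the lowest. Across the control-siRNA libraries GARS1 and TARS1 did not overlap, whereas the neighbours LARS1 and EPRS1 (144 ± 3.55 and 148 ± 3.60 TPM) did, as did RARS1 and NARS1 (157 ± 2.53 and 158 ± 5.41 TPM). Across the TAZ-siRNA libraries GARS1 and TARS1 overlapped.

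Transcript estimates, chosen for description after they were seen, added detail for KARS1 and SLC7A11. KARS1 makes a cytosolic and a mitochondrial lysyl-tRNA synthetase from alternatively spliced mRNAs. The cytosolic form (NM_005548) was estimated at 144.5, 148 and 160.3 TPM with control-siRNA and 144.4, 142 and 157 TPM with TAZ-siRNA, so its groups overlapped. The mitochondrial form (NM_001130089) was at 118, 119 and 105 TPM with control-siRNA and 74.9, 71.6 and 69.7 TPM with TAZ-siRNA, without overlap. Its share of KARS1 TPM was 42.5 ± 3.04% with control-siRNA and 32.3 ± 1.85% with TAZ-siRNA (SD, n = 3 each). For SLC7A11 the coding transcript NM_014331 held 91.2 ± 1.09% and 77.3 ± 5.09%, and a transcript annotated as non-coding, XR_001741191, held 8.26 ± 1.099% and 21.8 ± 5.49%. Such shares can be unstable: in ASNS, NM_001673 was given 86.1% of TPM in control-siRNA replicate 2 and 1.31 and 7.87% in the other control-siRNA libraries.

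**Figure D5:**
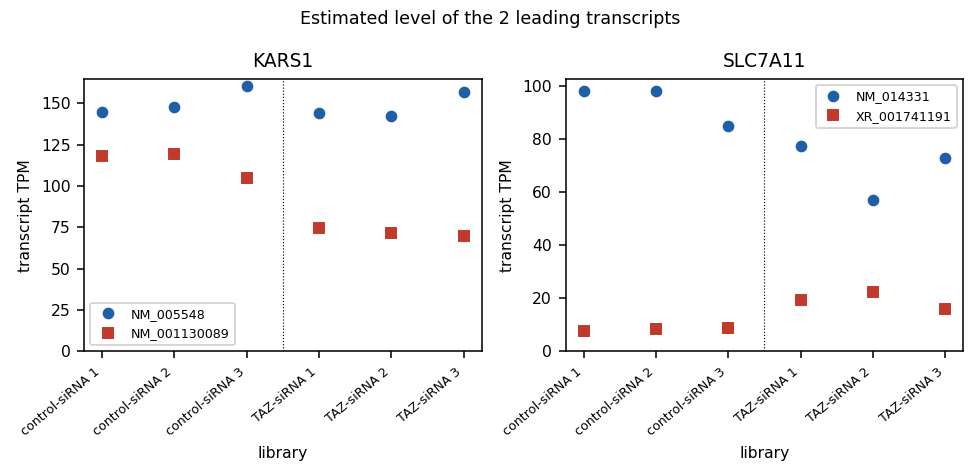
Estimated TPM (y axis) of the 2 leading transcripts of KARS1 (left) and SLC7A11 (right) in the 6 libraries (x axis), with a dotted line between the groups. For KARS1 the cytosolic form (circles) overlaps between groups and the mitochondrial form (squares) drops from 105 to 119 TPM to 69.7 to 74.9 TPM. For SLC7A11 the coding transcript (circles) is lower and the non-coding one (squares) higher in every TAZ-siRNA library.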

How the data were processed

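The labels name 2 library kits, a TruSeq RNA kit that does not keep strand and a stranded mRNA kit, and the study's methods name the stranded one. Reads were trimmed by the authors, aligned to GRCh38 by HISAT2 and assigned to RefSeq models by StringTie. GEO's processing fields also name Bowtie 0.12.2 and mm8, with no role given. Whether counting used strand is not given in the sources used here, so reads of overlapping genes may be divided wrongly. The deposited estimated counts came from coverage and are whole numbers, the deposited FPKM values are scaled for length and depth, and the deposited TPM values sum alike in each library. Column names numbered replicates 1 to 3. Counts were compared with edgeR 4.0.16 (R 4.3.3; TMM, filterByExpr with min.count 10, quasi-likelihood test with robust dispersions, Benjamini-Hochberg adjustment over 16966 genes). Alternatives were DESeq2 1.42.0, limma 3.58.1 on log2 FPKM with a pseudocount of 1 or 0.1, upper-quartile factors, other filters, a stricter threshold, a replicate block, a spline correction for GC content (GENCODE 44 transcripts) and length, and leaving out each library. The procedure was tested on simulated data. All 39 genes and WWTR1 are named, and of each further list at most 4 called genes by largest fold change. Values by library are given for genes that passed with groups that did not overlap, and for ATF4 and WWTR1, and those of ASNS, DDIT3, TRIB3, HSPA5, HMOX1, GDF15 and PYCR1 were added after they were seen. Members and lists were chosen with earlier results of these data known, and no set test was run. Some results of the further lists are not reported here.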

Additional observations from a re-analysis of the deposited data

How the results depend on the processing

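Of the 39 genes, 13 fell and 3 rose in the reported fit. The number that fell was 6 to 30 when 1 library was left out (5 to 18 for synthetases and 1 to 12 for the other genes), with the highest value of each without TAZ-siRNA replicate 3 and the lowest without control-siRNA replicate 2 (for synthetases also without control-siRNA replicate 3, and for the other genes also without TAZ-siRNA replicate 1). The cause of these shifts was not tested. At an adjusted p under 0.01, 6 genes fell (5 synthetases and 1 other), as a stricter threshold must give fewer. With the replicate block 20 fell, 12 of them synthetases and 8 other genes, 3 rose, and CEBPB was no longer among the calls (edgeR adjusted p = 0.083). Same-numbered libraries deviated from their group means with correlations of -0.0173, 0.0086 and 0.0698, so the numbers were not taken to pair the libraries. The block moved the calls over all genes from 3749 (2012 higher and 1737 lower) to 2601 higher and 2521 lower. DESeq2 gave 19 lower and 4 higher, correcting for GC content and length gave 16 and 4, limma gave 12 and 4 on log2(FPKM + 1) and 11 and 4 on log2(FPKM + 0.1), and the upper-quartile factors and other filters gave 12 or 13 and 3. Signs turned only in genes that did not pass. With 1 library left out, the log2 fold change ran from -0.143 to 0.025 for MARS1, from -0.284 to 0.015 for WARS1, from -0.142 to 0.069 for CEBPG and from -0.119 to 0.061 for ATF4, each lowest without TAZ-siRNA replicate 3 and highest without replicate 2. It was also above 0 for ATF4 without TAZ-siRNA replicate 1 (0.015) and without control-siRNA replicate 3 (0.0046). After the correction of GC content it was 0.034 for ATF4 and -0.064 for VLDLR.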

Other observations

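Genes of amino-acid sensing upstream of mTORC1, the kinase complex that ties growth to amino-acid supply, were counted beside the module. Of 19 tested, 6 rose and 3 fell, against 11.9 and 10.2% of all genes tested. The arginine-sensor homologue gene CASTOR2 rose from 5.11, 4.19 and 4.80 CPM to 8.89, 8.21 and 6.07 CPM (log2 fold change 0.72, standard error 0.14, edgeR adjusted p = 0.0063), and the sestrin gene SESN3 rose from 11.1, 9.71 and 9.14 CPM to 17.4, 16.4 and 13.1 CPM (log2 fold change 0.65, standard error 0.11, edgeR adjusted p = 0.0029). RRAGB, which encodes a Rag GTPase, and SESN1 rose as well, with log2 fold changes of 0.64 and 0.46 (edgeR adjusted p = 0.0081 and 0.0057). In these 4 genes every TAZ-siRNA library was above every control-siRNA library. TAZ-siRNA replicate 3 was the lowest of its group in these 4 genes. With SESN2, all 3 sestrin genes were thus higher with TAZ-siRNA. The 3 that fell, named after their values were seen, were LAMTOR2, of the complex that anchors Rag GTPases to the lysosome, and NPRL2 and NPRL3, of a complex that restrains mTORC1, with log2 fold changes of -0.26, -0.32 and -0.32 (edgeR adjusted p = 0.017, 0.014 and 0.0022).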
